A study of Mus musculus with 5 samples.

Results

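The 10 fibroblast-associated genes followed here encode no collagen: Dcn, Lum, Fbn1, Lox, Thbs1, Sparc, Postn, Thy1, Tagln and Acta2. They were measured in 5 mouse embryonic stem cell (ESC) lines. The 10 genes were listed by name among the 27962 gene names of the array, and every non-control probe that carries one of these names was used, 21 probes in all. Of these, 19 of 21 probes passed the filter of being detected on at least 1 array, and each of the 10 genes kept at least 1 probe. The genes did not behave as one block. Dcn, Lox and Thy1 gave their highest signals in the lines #620-2 and #620-6. Lum was well above background in these lines alone. By contrast, Tagln and Thbs1 gave their lowest signals in the same pair of lines. Postn and the brightest probes of Fbn1 and Acta2 varied little between lines. No member probe passed the test between wild type and ECAT11 EGFP/EGFP lines.

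The study asked whether loss of ECAT11, a gene of pluripotent cells related to an L1 retrotransposon protein, changes expression in ESCs. RNA of each line was hybridized to 1 one-colour Agilent array. Wild type was represented by RF8, a parental line of 129sv origin labelled male, and #620-2, of C57BL6/129sv origin and labelled female. The ECAT11 EGFP/EGFP lines were #620-6, labelled female, and #757-1 and #757-2, both labelled male, all 3 of C57BL6/129sv origin. In these lines an EGFP-IRES-Puro cassette had replaced the coding region of ECAT11 on both alleles, and all targeted alleles descended from 1 correctly targeted ESC clone. All 5 lines were cultured in serum and LIF on gelatin for the arrays. According to the methods, the new lines had been derived from blastocysts on SNL feeders, a mouse fibroblast line, and ESCs were kept either on mitomycin C-treated SNL cells or on gelatin. The number of passages without feeders is not given in the sources used here. RF8, #620-2 and #620-6 were on slide 1, and #757-1 and #757-2 were on slide 2. The sex label and the number 620 therefore coincide, strain sets RF8 apart, and slide sets the 757 lines apart. With 5 arrays these properties cannot be separated from differences between the lines themselves.

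Fibroblasts build and remodel the matrix of connective tissue. They secrete collagens together with small leucine-rich proteoglycans, fibrillins, crosslinking enzymes and matricellular proteins, and when activated they also make the contractile proteins of smooth muscle. Mitotically inactivated fibroblasts are the usual feeder layer for mouse ESCs, so RNA of such cells can remain in an ESC culture, but many of the same genes are also used by ESCs or by their first differentiated progeny. In RNA from a whole culture, fewer cells of a type and less RNA per cell cannot be told apart.

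Signals are given on the log2 scale relative to the 75th percentile of each array, which lay between 687.5 and 794.4 intensity units, so 0 is a gene at that percentile. Levels of different probes are not compared, because brightness depends on the probe. A probe was taken as measured where every unmarked spot was well above background by the scanner software. Slide 1 had 26359 to 27128 such probes per array, and slide 2 had 22039 and 21236. The lowest measured value lay between -6.21 and -5.90 on slide 1 and at -4.49 and -4.22 on slide 2, so a weak signal seen on slide 1 could be missed on slide 2. All 9 ESC markers with a probe, Pou5f1, Nanog and Sox2 among them, were well above background in all 5 lines. The number of arrays limits the precision, and p-values measure only the spread between these lines.

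The 6 probes printed here lie in coding sequence and are shown because they fix which part of each mRNA was measured. The capitals mark the stop codon of Dcn, which sits at the end of its probe. Positions are those of the array files, on build mm7. The Dcn probe is at chr10:97080086-97080145 on the plus strand, Thy1 at chr9:43981253-43981698 on the plus strand, Thbs1 at chr2:117861824-117862004 on the plus strand, Tagln at chr9:45888956-45889015 on the minus strand, Acta2 at chr19:33949738-33952992 on the minus strand and Sparc at chr11:55352704-55355361 on the minus strand. Each probe has 60 bases, so the probes of Thy1, Thbs1, Acta2 and Sparc, whose genomic spans are longer, cross a splice junction.
Dcn: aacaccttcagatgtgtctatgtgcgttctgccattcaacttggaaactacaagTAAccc
Thy1: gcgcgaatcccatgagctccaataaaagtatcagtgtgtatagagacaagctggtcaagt
Thbs1: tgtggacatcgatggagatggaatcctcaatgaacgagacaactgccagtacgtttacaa
Tagln: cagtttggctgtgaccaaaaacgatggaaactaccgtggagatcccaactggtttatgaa
Acta2: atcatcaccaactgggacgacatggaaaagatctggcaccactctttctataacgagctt
Sparc: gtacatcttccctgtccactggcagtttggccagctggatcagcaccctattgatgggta

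Decorin and lumican are small leucine-rich proteoglycans that bind collagen fibrils. Dcn gave -3.30 in RF8, -0.53 in #620-2, -0.27 in #620-6, -2.89 in #757-1 and -2.37 in #757-2, and was well above background in every line. Both 620 lines stood clear of the other 3, and RF8 was the lowest. A second Dcn probe, annotated from a cDNA clone, was not well above background in any line. Lum gave -3.25 in #620-2 and -5.37 in #620-6. It was not well above background in RF8, #757-1 or #757-2, where the readings were -8.05, -6.75 and -5.48. Lumican was thus measured in the 620 pair and in no other line, and the slide 2 readings lay below what slide 2 could measure. The #620-6 reading lay below that limit too, so it cannot be ranked above the 757 lines.

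Fibrillin-1, encoded by Fbn1, forms the microfibrils of elastic fibres, and lysyl oxidase, encoded by Lox, crosslinks collagen and elastin. Fbn1 gave -2.63 in RF8, -2.78 in #620-2, -3.31 in #620-6, -3.29 in #757-1 and -3.50 in #757-2. By this probe all 5 values lay within 0.87, and the knock-in lines were a little below both wild-type lines. The second Fbn1 probe was dimmer and spanned 2.46, from -6.35 in #757-2, where it was not well above background, to -3.89 in #757-1. Lox gave -5.58 in RF8, -3.25 in #620-2 and -3.19 in #620-6, and was not well above background in #757-1, at -6.62, or in #757-2, at -6.47. The 620 lines differed by 0.05 and were far above RF8, the only other line in which Lox was measured.

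Thbs1, Sparc and Postn encode thrombospondin-1, osteonectin and periostin, matricellular proteins that modulate adhesion rather than build the matrix. The brightest Thbs1 probe gave 0.25 in RF8, -1.80 in #620-2, -1.74 in #620-6, -0.49 in #757-1 and -0.72 in #757-2. The order was the opposite of that of Dcn: RF8 was the highest, and the 620 pair was the lowest. The other 2 Thbs1 probes were well above background in RF8 alone. The exon-spanning Sparc probe gave 4.52 in RF8, 3.47 in #620-2, 4.50 in #620-6, 4.09 in #757-1 and 4.50 in #757-2. Only #620-2 stood apart, and the other Sparc probe had its lowest value there too, at 1.99 against 3.04 to 3.45 elsewhere. Postn was dim but measured in every line, between -4.37 in #620-2 and -3.62 in RF8.

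Thy1 encodes a glycolipid-anchored surface protein of fibroblasts, thymocytes and neurons. Its brightest probe gave 0.52 in RF8, 1.72 in #620-2, 1.70 in #620-6, -0.49 in #757-1 and 0.07 in #757-2. The exon-spanning probe gave -2.83, -2.55, -2.55, -3.98 and -3.54 in the same order of lines. By both probes the 620 lines were the highest, RF8 was next and the 757 lines were the lowest, but RF8 lay closer to the 620 pair by the second probe.

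Tagln encodes transgelin, an actin-binding protein of smooth muscle and activated fibroblasts, and Acta2 encodes smooth muscle alpha-actin. The brightest Tagln probe gave 5.28 in RF8, 3.08 in #620-2, 2.22 in #620-6, 4.59 in #757-1 and 4.20 in #757-2. The coding probe gave 2.32, -0.06, -0.88, 1.77 and 1.23 in the same order. Both probes placed the lines alike, with RF8 the highest and the 620 pair the lowest.

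The probes of Acta2 did not behave alike. The exon-spanning probe printed above gave 3.11 in RF8, 2.97 in #620-2, 2.97 in #620-6, 3.14 in #757-1 and 3.04 in #757-2, a range of 0.17. Its sequence lies in a coding stretch that is closely similar among actins, and its match to other actin mRNAs was not tested. A probe near the 3′ end of the gene, spotted 10 times on each array, gave 2.51 in RF8, 1.38 in #620-2, 0.79 in #620-6, 0.61 in #757-1 and 1.05 in #757-2. The SD between its 10 spots was 0.022 to 0.061, far below the range between lines of 1.90, but spots of 1 array share the same RNA. A further probe at the 3′ end also had its highest value in RF8, at -1.22, against -2.94 to -2.45 in the other lines. By these 2 probes Acta2 was highest in RF8, and by the coding probe it was nearly level. A dim probe lying further 3′ was measured in RF8, at -5.84, and in #757-1, at -4.41, and so did not share that order. The remaining Acta2 probe was measured in no line.

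**Figure D1:**
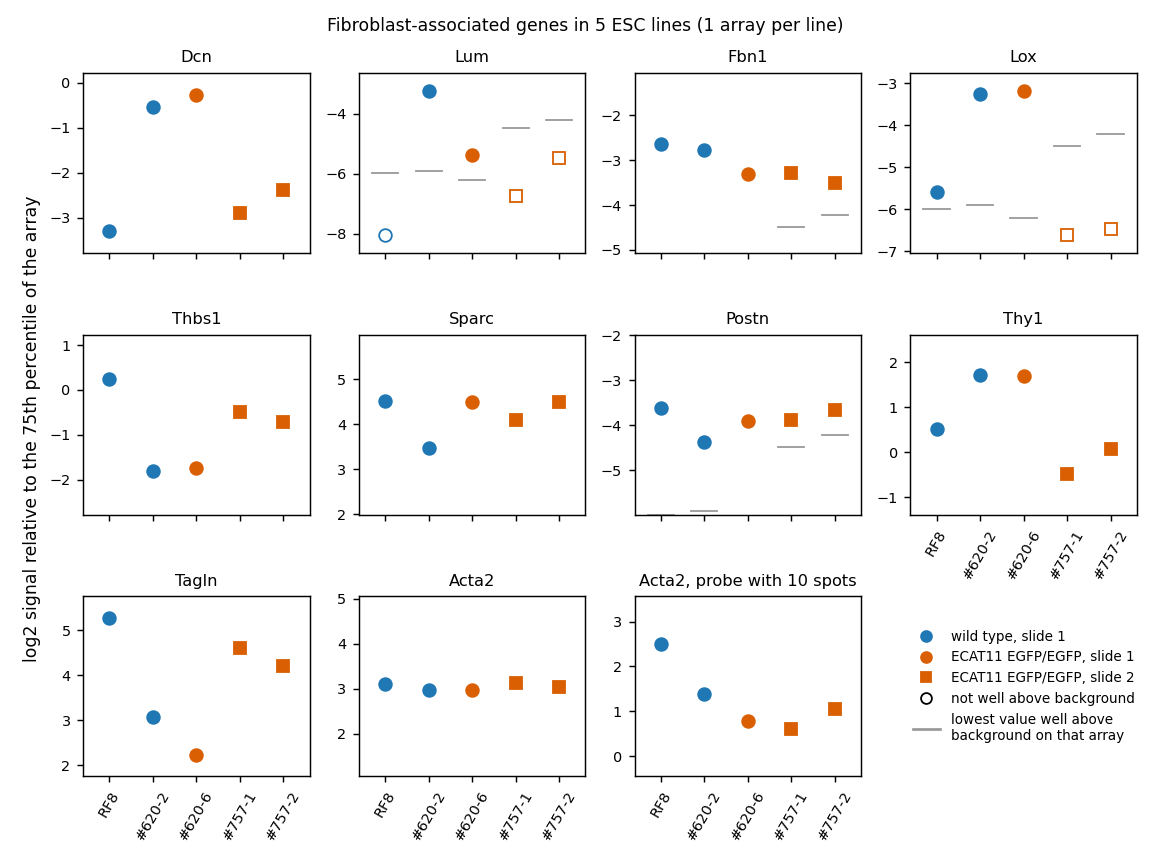
Log2 signal relative to the 75th percentile of the array (vertical axis) in each of the 5 lines (horizontal axis) for the brightest probe of each gene and for the Acta2 probe with 10 spots. Each point is 1 array, without error bars, open symbols were not well above background, and grey lines give the lowest measured value of that array where it falls within the panel. Dcn, Lox and Thy1 are highest in #620-2 and #620-6, and Lum is well above background in these lines alone. Tagln and Thbs1 are lowest there, and the brightest Acta2 probe spans 0.17.

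The spread of these genes between lines was wide. Of the 13 member probes well above background in all 5 lines, 10 spanned more than 2-fold between the highest and the lowest line, against 23.5% of all 20610 such probes. Counted by the brightest probe of each gene, 5 of 8 genes did so: Dcn, Thy1, Tagln, Thbs1 and Sparc. The median range of the brightest probes of these 8 genes was 1.55 on the log2 scale, and 1.40 with the normexp background correction. Over all 10 genes, with Lum and Lox, whose lowest values were not well above background, it was 2.13, and 1.09 with normexp. Probes of 1 gene share a target and are not independent.

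Taken pair by pair, RF8 and #620-2 were the furthest apart, although both are wild type. In this pair, the signals of 10 of 15 member probes that both lines measured lay over 2-fold apart (66.7%), against 10.3% of all probes. In RF8 and #620-6 the share was 53.3% against 14.2%, in #620-2 and #757-1 it was 57.1% against 9.46%, in #620-2 and #757-2 it was 53.8% against 8.77%, and in #620-6 and #757-1 it was 50% against 11%. Smaller shares were found in #620-6 and #757-2, with 38.5% against 8.14%, in RF8 and #757-1, with 33.3% against 6.39%, and in RF8 and #757-2, with 30.8% against 5.91%. Within the 620 pair, a wild-type and a knock-in line, 18.8% differed, against 7.1% of all probes, and the genes were Lum and Sparc. Within the 757 pair, both knock-in, none of 13 member probes differed by more than 2-fold, against 1.81% of all probes. With 1 array per line there is no test between single lines.

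**Figure D2:**
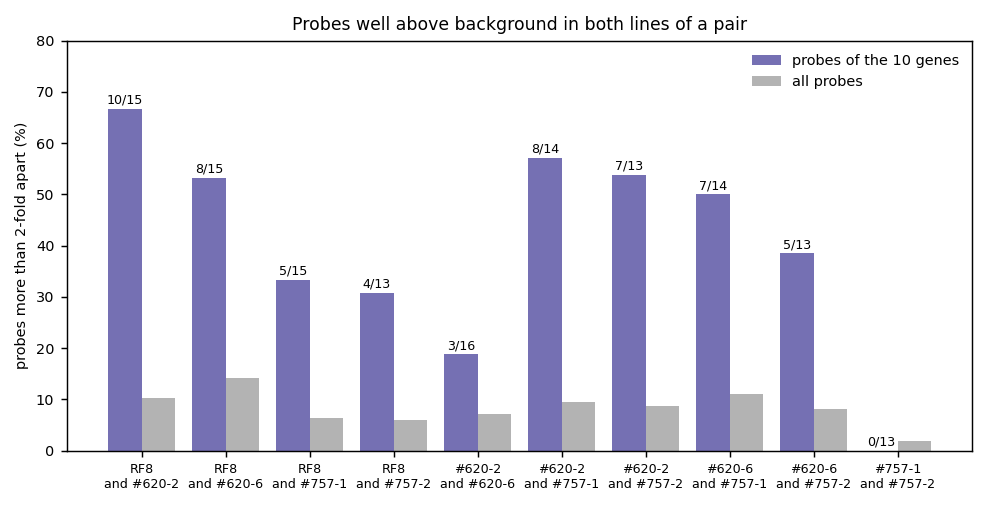
Percent of probes more than 2-fold apart (vertical axis) in each pair of lines (horizontal axis), among probes well above background in both lines, for the 10 genes and for all probes. Fractions give the member probes apart over those measured, from 10 of 15 in RF8 and #620-2 to 0 of 13 in #757-1 and #757-2.

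The comparison the study was built for set the 3 ECAT11 EGFP/EGFP lines against the 2 wild-type lines. With limma and Benjamini-Hochberg adjustment over 28972 probes, a call required an adjusted p below 0.05 together with a change above 2-fold. None of the members was called (0 of 19 probes), and 1 probe of the whole array was (0.00345%). With the same fold but p below 0.05 before adjustment there were 2 of 19 member probes, against 3.34% of all probes. Both belong to Acta2 and point in opposite directions, 1 higher, against 2.34% of all probes, and 1 lower, against 0.994%. The Acta2 probe with 10 spots was lower in the knock-in lines, at 0.81 ± 0.22 (SD, n = 3) against 1.95 ± 0.80 (SD, n = 2). Its log2 difference was -1.13 (SE 0.39, limma adjusted p = 0.608). A dim Acta2 probe had a difference of 1.29 (SE 0.36, limma adjusted p = 0.582), but this fit lacks #620-6, whose only spot was marked, and the probe was measured in 2 of the other lines.

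Fbn1 was the one other member with p below 0.05 before adjustment, though its change was below 2-fold, which makes 3 of 19 member probes, against 7.6% of all probes. Its brightest probe gave -3.37 ± 0.12 (SD, n = 3) in knock-in and -2.70 ± 0.10 (SD, n = 2) in wild-type lines, a log2 difference of -0.66 (SE 0.16, limma adjusted p = 0.483). The difference of the second Fbn1 probe was -0.30 (SE 0.77). Among the 18 member probes with a value on every array, those whose groups did not overlap numbered 0 higher and 2 lower in the knock-in lines, against 11.4% and 12.1% of all probes. The median log2 difference of the 19 probes was -0.30, with 7 above 0 and 12 below, against -0.02 over all probes tested. This median became -0.06 with the slide as a block and 0.09 without RF8. With 2 lines against 3, an exact permutation test cannot give a p under 0.1.

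The large differences lay along another division of the lines. Because #620-2 and #620-6 are the lines labelled female, they were set against RF8, #757-1 and #757-2, labelled male, a comparison added after the values had been seen. The same 2 lines share the number 620 and a slide that also held RF8. Neither the sex label nor any other property of the pair can be named as the source. By limma, 0 of 19 member probes passed, against 99 of 28971 probes (0.342%). With p below 0.05 before adjustment there were 7 of 19 member probes, against 18% of all probes, and each of the 7 exceeded 2-fold, against 7.33%. Of these, 3 of 19 were higher in the 620 pair, against 4.33% of all probes, and 4 of 19 were lower, against 3%. Among the 18 member probes with a value on every array, groups did not overlap for 12, against 39% of all probes. Of these 5 were higher and 7 lower in the 620 pair, against 18.7% and 20.3% of all probes. The 5 include Lum, where #620-6 cannot be ranked above the 757 lines. The 7 include 2 Thbs1 probes measured in RF8 alone, so the order of the other lines by these probes is not known. The Thbs1 probe printed above is one of them and is also among the 4 lower probes. Since the comparison was chosen for this pattern, the counts describe it and do not test it.

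Dcn was at -0.40 ± 0.19 (SD, n = 2) in the 620 pair and -2.85 ± 0.47 (SD, n = 3) in the other lines, a 5.47-fold difference (log2 2.45, SE 0.31, limma adjusted p = 0.0745). It passed the test with the normexp background correction, at 1.83 and a limma adjusted p of 0.0281. For Lox, RF8 was the only one of the 3 other lines that was measured. Its fitted log2 difference of 3.0 (SE 0.36, limma adjusted p = 0.0704) uses the 757 readings that were not well above background, and was 0.93 with normexp (limma adjusted p = 0.0245). The brightest Thy1 probe was 3.20-fold higher (log2 1.68, SE 0.33, limma adjusted p = 0.119). For Lum the fitted difference is no bound, and the mean of the 620 pair was at least 1.51-fold higher (limma adjusted p = 0.305). This rests on #620-2, because #620-6 lay below the lowest values measured on slide 2. Within slide 1 alone, the 620 pair exceeded RF8 by 2.90 for Dcn, 2.36 for Lox and 1.19 for Thy1, all on the log2 scale. Both 620 lines lay above RF8 for these 3 genes, so this direction follows from the same values and is no further test.

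The lower members were Tagln and Thbs1. Tagln was 4.12-fold lower in the 620 pair by its brightest probe (log2 -2.04, SE 0.43, limma adjusted p = 0.134), and its coding probe differed by -2.24 (SE 0.43, limma adjusted p = 0.115). Thbs1 was 2.73-fold lower by its brightest probe (log2 -1.45, SE 0.33, limma adjusted p = 0.145). Within slide 1 the 620 pair was below RF8 by -2.63 for Tagln and -2.02 for Thbs1 on the log2 scale. Between the 2 lines of the 620 pair, which differ in genotype, Dcn, Lox, Thy1 and Thbs1 were 0.26, 0.05, -0.02 and 0.06 apart, whereas Lum, Tagln and Sparc were -2.13, -0.86 and 1.03 apart (#620-6 minus #620-2). Lum, Sparc, Postn, Fbn1 and Acta2 had no probe that was both past an unadjusted p of 0.05 and more than 2-fold apart in the comparison by sex label.

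**Figure D3:**
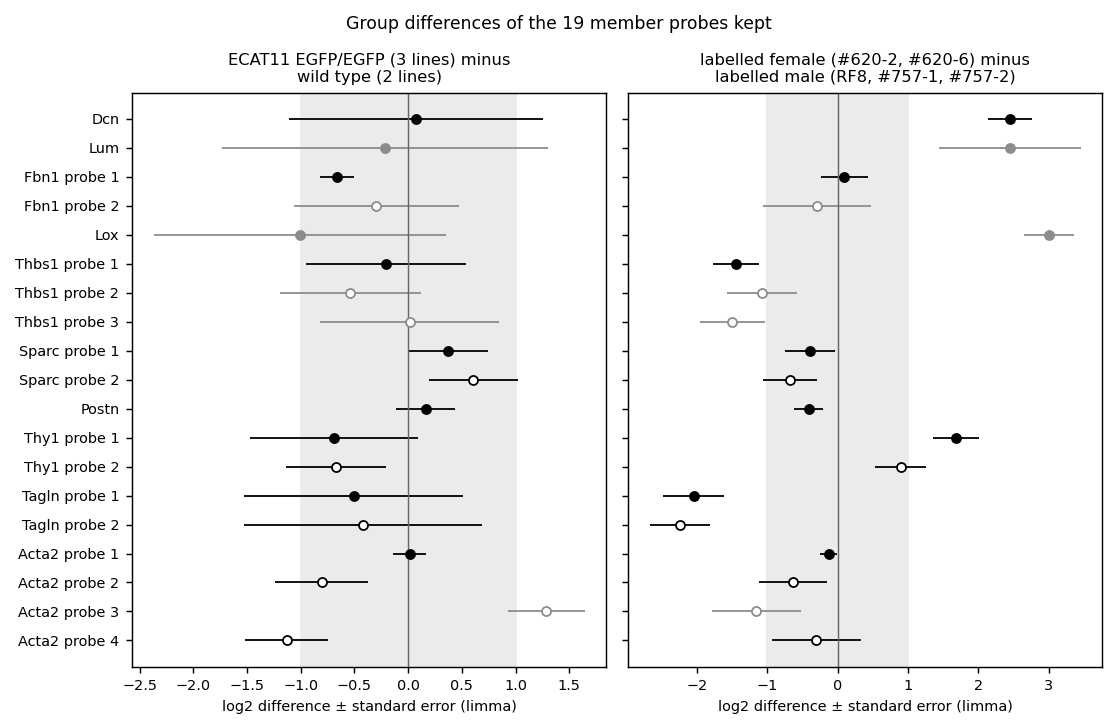
Log2 difference of each of the 19 member probes (horizontal axis, limma estimate ± standard error) between the genotypes (left) and between the lines by sex label (right). Filled points are the brightest probe of a gene, grey points were not well above background in all 5 lines, and the grey band covers changes below 2-fold. On the left the standard errors are wide and no probe was called, and on the right Dcn and Thy1 lie above 1 and Tagln and Thbs1 below -1, while the grey points of Lum and Lox rest in part on values not well above background.

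Other genes of fibroblasts were listed to set beside the members: 8 fibroblast collagens and 20 further mesenchymal markers. Of these 28 genes, 26 were well above background in each 620 line, 23 in RF8, and 17 and 18 in the 757 lines. Of all 41174 probes, 26359 to 27128 were so on the arrays of slide 1, against 22039 and 21236 for the 757 lines on slide 2. Fap, a defining marker of activated fibroblasts, and Tcf21, a transcription factor of mesenchyme, were not well above background in any line, whereas Col6a3, Pdgfra and Mmp3 were, by their brightest probes, measured in both 620 lines and in no other. A dimmer Col6a3 probe was measured in RF8, at -5.08, and in #620-2, at -4.57. Their summed signal, in multiples of the 75th percentile of the array, was 113 and 119 in the 620 lines, 55.4 in RF8, and 35.9 and 42.3 in the 757 lines. By genotype these sums ranged from 55.4 to 113 in wild type and from 35.9 to 119 in knock-in lines. Most of the excess of the 620 lines was in S100a4 and Vim. Without these 2 genes the sum was 35.0 in RF8, 29.2 and 27.1 in the 620 lines, and 18.9 and 20.1 in the 757 lines, so this sum was highest in RF8. A few bright probes carry such sums. Gene by gene, the median log2 value after centring on the mean of the 5 lines was highest in the 620 pair for both lists. For the collagens it was 0.71 and 0.57 there, against -0.08 in RF8 and -1.38 and -0.47 in the 757 lines. For the mesenchymal markers it was 0.45 and 0.53, against -0.25 in RF8 and -0.87 and -0.38 in the 757 lines. The part of such cells in the signals of the 10 genes was not tested.

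Several of these markers ran with Dcn and Lox, and others did not. By their brightest probes, Fn1, Fstl1, Cdh11, Cd248 and Mmp2 were measured in every line. Their differences by the sex label were -0.14, -0.02, -0.05, 0.06 and -0.91. The dimmer Cdh11 probes were higher in the 620 pair. S100a4, a calcium-binding protein of motile mesenchymal cells, gave -0.06 in RF8, 5.61 and 5.70 in the 620 lines, and -1.66 and -1.40 in the 757 lines. Its difference by the sex label was 6.70 (SE 0.53, limma adjusted p = 0.0403). Pdgfra, a growth factor receptor of mesenchyme and of primitive endoderm, was at least 7.66-fold higher in the 620 pair by its brightest probe (limma adjusted p = 0.00993). Its other probe was measured in #620-2 alone. Prrx1, a mesenchymal transcription factor, was called by 3 of its 4 kept probes. By the 2 of these that were measured in the 620 lines alone, it was at least 5.15-fold and 5.91-fold higher (limma adjusted p = 0.00993 and 0.0138). Col6a3 was at least 12.2-fold higher (limma adjusted p = 0.0348), a call that was lost with the slide as a block (limma adjusted p = 0.0684). In all, 5 of 28 mesenchymal probes and 1 of 13 collagen probes were called higher, and 0 lower, against 0.342% of all probes called in either direction. These calls rest on few lines. The called probes of Pdgfra and Col6a3, and 2 of those of Prrx1, were measured in the 620 lines alone. They passed the filter only through those lines, and their p-values use readings elsewhere that were not well above background. The comparison was also chosen after the values had been seen, so these counts describe the pattern and do not test it. With genotype as a covariate, or without #620-2, #620-6, #757-1 or #757-2, limma called 0 probes of the whole array, and without RF8 it called 88. Between the genotypes none of these probes (0 of 28 and 0 of 13) was called, and with p below 0.05 before adjustment and a change above 2-fold there were 2 collagen probes and 1 mesenchymal probe, that of Pdgfrb (log2 difference -2.52). By the sex label, Mmp3, a matrix protease, was at least 13.7-fold higher in the 620 pair without passing (limma adjusted p = 0.0597). With the slide as a block it passed (limma adjusted p = 0.03945), using readings outside the 620 pair that were not well above background. Before adjustment, with p below 0.05 and more than 2-fold, 11 of 28 mesenchymal probes were higher, against 4.33% of all probes. In the other direction there was 1, against 3%, that of Cdh2 (log2 -1.28). Bgn, the proteoglycan closest to Dcn, was measured in the 620 lines alone and was at least 3.74-fold higher there (limma adjusted p = 0.00993). The fibulins Fbln2 and Fbln5 differed by 4.06 and 2.89 (limma adjusted p = 0.00993 and 0.0128). Bgn, Fbln2 and Fbln5 were the only calls in their lists, 1 of 4 kept proteoglycan probes and 2 of 24 elastic fibre probes, against 0.342% of all probes. Of 8 proteoglycan genes, 4 were measured in no line. Ogn and Prelp were measured in the 620 lines alone and were at least 6.14-fold and 2.39-fold higher there, without passing (limma adjusted p = 0.0704 and 0.113). Both passed with the slide as a block (limma adjusted p = 0.03945 and 0.0422). By its brightest probe Fbln1 was nearly level, at 0.09, and Mfap2 was lower, at -1.98. Fmod was well above background in RF8 and #620-6 alone, so its difference of -0.05 does not show that it was level.

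Among the main collagens, Col1a1 and Col1a2 were not highest in the 620 pair, whereas Col3a1 was. Col1a1 gave 2.98 in RF8, 0.80 and 0.56 in the 620 lines, and 0.00 and 1.15 in the 757 lines, so RF8 was the highest. Col1a2 gave 2.52 in RF8, 1.63 and 1.54 in the 620 lines, and -1.38 and -0.04 in the 757 lines, the widest range among the collagens measured in every line. Col5a1 had the narrowest, 0.97. Col3a1 gave -2.88 in RF8, -1.10 and -1.13 in the 620 lines, and -4.33 and -3.92 in the 757 lines, which is the order of Thy1. Pdgfrb, the receptor of perivascular fibroblasts, was -1.48 in RF8, -1.94 and -3.07 in the 620 lines and -3.98 in #757-2, and was not well above background in #757-1. Vim, an intermediate filament protein that ESCs also make, was 5.13 and 5.31 in the 620 lines against 4.06 to 4.45 elsewhere. Lif, the factor SNL cells are used to supply, is not analysed here.

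Several genes of the smooth muscle contractile apparatus ran with Tagln rather than with Dcn. Of 23 kept probes for 16 such genes, none was called by the sex label. Counting changes above 2-fold with p below 0.05 before adjustment, 0 were higher and 6 lower in the 620 pair, against 4.33% and 3% of all probes. The groups did not overlap for 10 of 23 probes that were lower and for 1 that was higher, against 20.3% and 18.7% of all probes. Both counts of lower probes include Myocd, which was measured in RF8 alone. Cnn1, which encodes calponin, gave 3.03 in RF8, 1.17 and -0.02 in the 620 lines, and 2.80 and 2.21 in the 757 lines. Myl9, a myosin light chain, gave 3.22 in RF8, 1.11 and 0.85 in the 620 lines, and 3.88 and 3.13 in the 757 lines, a difference of -2.43 (SE 0.28, limma adjusted p = 0.0704). Srf, whose product is the serum response factor that drives these genes, differed by -0.72 (SE 0.16, limma adjusted p = 0.142). Acta1 had the widest range among those measured in every line, 3.85, and Actg2 the narrowest, 0.29. The median difference of the 23 probes was -0.50, against -0.02 over all probes tested.

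**Figure D4:**
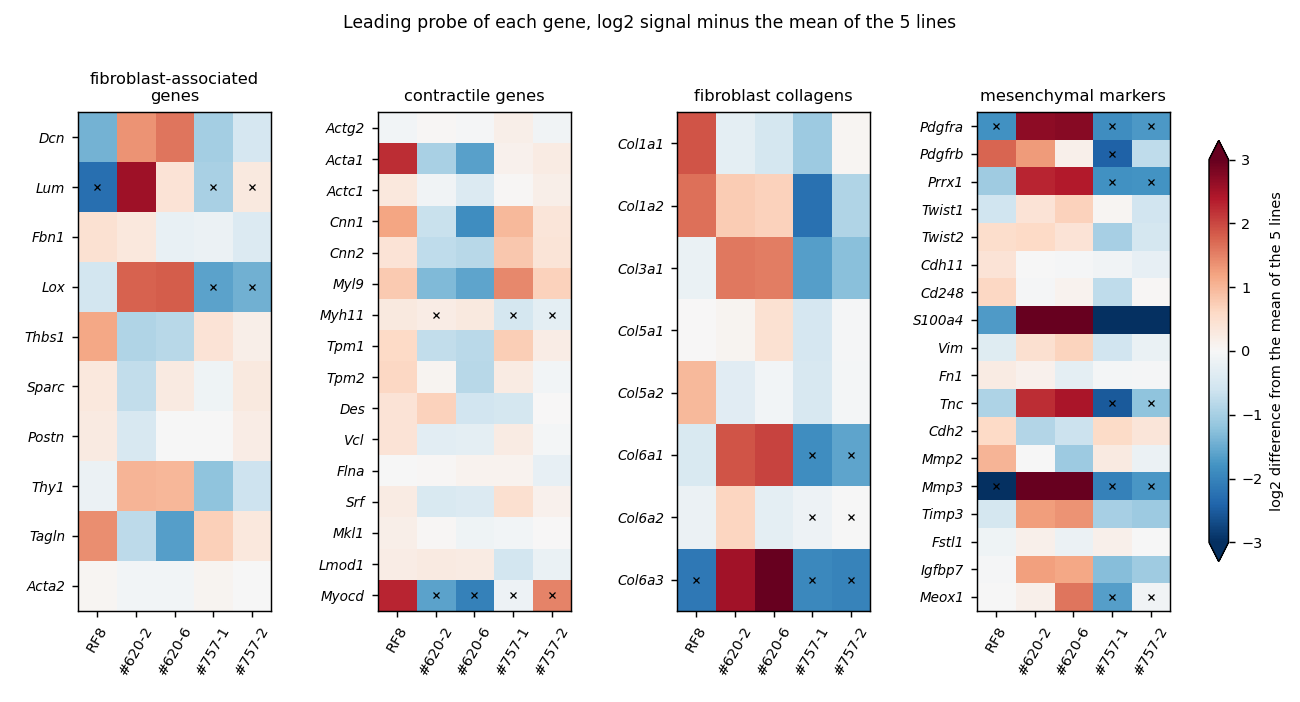
Log2 signal of the brightest probe of each gene minus its mean over the 5 lines (colour, red higher and blue lower, limited to 3 either way), for the 10 genes and for the contractile, collagen and mesenchymal lists. Crosses mark values not well above background, and genes measured in no line are left out. Tagln and Thbs1 share the pattern of Cnn1 and Myl9, with the 620 lines low, and Dcn and Lox share that of Pdgfra, Prrx1 and S100a4, with the 620 lines high.

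Contractile genes are classical targets of serum response factor, which binds the CArG box, so the promoter of Acta2 is shown as the member with this box. RefSeq promoters (build GRCm38.p6) were found for 4 of the 10 genes, Acta2, Fbn1, Postn and Sparc, and the 250 bases before each annotated start were searched. Acta2 was the only one of these with CArG boxes, at 84 and 34 bases before the start. Each had 1 core base other than A or T, which the search allowed, so Acta2 held no exact box. It also held GGAATG, searched on both strands and bound by TEAD factors, 146 bases before the start. Capitals mark these 3 matches in the sequence at chr19:34255374-34255623, minus strand.
Acta2 promoter: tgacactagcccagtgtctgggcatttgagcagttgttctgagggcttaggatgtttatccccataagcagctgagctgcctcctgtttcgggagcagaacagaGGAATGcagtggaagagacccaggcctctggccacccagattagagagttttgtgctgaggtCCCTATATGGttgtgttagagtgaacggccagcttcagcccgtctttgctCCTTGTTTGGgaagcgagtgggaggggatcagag
A CArG box with 1 such base allowed was in 8.59% of all 32851 promoters of that length, an exact box in 1.47% and GGAATG in 12.6%. Among the 12 contractile genes with a promoter, 6 held an exact box: Acta1, Actc1, Cnn2, Myl9, Srf and Vcl. A match in this window is a description of letters and not a binding site.

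Genes of the TGF-beta pathway, which induces Acta2, Tagln and matrix genes in fibroblasts, were listed as well. Of 12 genes, 10 were well above background in every line, and of 15 kept probes none was called in either comparison. By the sex label, with p below 0.05 before adjustment and a change above 2-fold, 3 were higher and 0 lower in the 620 pair, against 4.33% and 3% of all probes. Tgfb3, a ligand, was among the 3, at -3.55 in RF8 and -1.49 and -1.44 in the 620 lines, and was not well above background in the 757 lines. Tgfbr2, a receptor, was another, at -1.53 in RF8, -0.66 and -0.69 in the 620 lines, and -2.36 and -2.15 in the 757 lines. Tgfb1, another ligand, gave -2.85 in RF8, -3.60 and -4.19 in the 620 lines, and -2.83 and -3.06 in the 757 lines. Of 15 kept probes of other matricellular genes, 4 were higher and 3 lower by the same rule, and none was called. The 4 were those of Sparcl1, Spock2 and Tgfbi. Spock2, with a difference of 1.27 (SE 0.14), and Tgfbi, with 1.19 (SE 0.33), were measured in every line, and Sparcl1 in RF8 and the 620 pair (limma adjusted p = 0.0685, 0.182 and 0.0628). The 3 lower probes were those of Thbs4 and Ctgf. Ctgf gave 5.09 in RF8, 3.18 and 3.75 in the 620 lines, and 5.14 and 4.27 in the 757 lines. Its 620 lines were the lowest, as for Thbs1.

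For each varying member measured in every line, the 3 most similar profiles of other genes were found among 4826 probes, by the root mean square difference over the 5 lines after centring each profile on its mean. For Dcn these were probes named Ddr2, a collagen receptor, at 0.187, 5730557B15Rik at 0.224 and Ppp1r14d at 0.247. For Thy1 they were Nupr1 at 0.123, Robo3 at 0.131 and Zfp386 at 0.142. For Tagln they were Foxa3 at 0.0512, Nes, the neural filament gene nestin, at 0.0746 and Atp10a at 0.0864. For Thbs1 they included Galr2 at 0.136 and Tgfa at 0.138, and for Sparc they were Slc36a1 at 0.0611, Cpeb4 at 0.0763 and Bcl2l14 at 0.0839. The likeness is over 5 arrays and describes these lines only.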

How the data were processed

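Cy3-labelled total RNA from each of the 5 ESC lines had been hybridized to its own one-colour Agilent array of 60-base probes. The authors scanned the arrays and deposited Feature Extraction 9.5.3.1 output with background-corrected intensity per spot, not normalized between arrays, and a table of log2 values. Differences between arrays in the deposited log2 table were regressed on those used here over 20610 probes (slope 0.9996, Pearson r 0.999878), so its scale is log2. Each probe's mean was removed from both beforehand, so the regression cannot show how the deposited values were centred.

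From 45018 spots per array, 1639 control spots were left out and spots marked as non-uniform or outliers (0.335%) were set missing. No spot was saturated. The log2 intensity minus the 75th percentile of the array was averaged per probe (41174 probes). The filter kept the 28972 probes that were detected on at least 1 array. Tests used limma 3.58.1 (R 4.3.3). A call needed a Benjamini-Hochberg adjusted p under 0.05 and more than 2-fold. A fold of a probe not measured in a group is a bound from the lowest measured value of each array. The brightest probe of a gene has the highest mean over the arrays. All member probes are named. From each other list were named the widest and narrowest ranges, genes called or with an unadjusted p under 0.05 (most of the latter given as counts only), and a set of defining fibroblast genes. Lists match the files' gene names or, for 2 genes with older names in the files, accessions through RefSeq. Fgf4 and Lif are not analysed here. A few single-gene values are not reported here. The members and lists were chosen with earlier results of these data known, and the comparison by sex label was added after its values had been seen. The alternatives were normexp with offset 50, quantile normalization, the deposited log2 values, no or a stricter filter, marked spots kept, the slide as a block, sex label or genotype as a covariate, the methods' t-test and leaving out each line. The code was tested on simulated data. Figures were drawn with matplotlib 3.10.9.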

Additional observations from a re-analysis of the deposited data

How the results depend on the processing

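No member probe was called between the genotypes under any of the 14 alternatives run, and 0 to 5 had p under 0.05 before adjustment with a change above 2-fold. The methods' t-test gave 0 member probes and 0 of all probes after Benjamini-Hochberg adjustment. The median genotype difference of -0.30 moved to -0.57 after quantile normalization and became -0.063 with slide as a block, and leaving out each line gave -0.41 to 0.086, the highest without RF8. Directions between the genotypes turned, with no probe called, as follows. Acta2 (brightest probe, 0.01) became -0.041 after quantile normalization and -0.0057 with normexp. Under a slide block, Acta2 became -0.063, Lox 1.22, Lum 0.28 and Thy1 0.58. With the sex label as a covariate, Acta2 became -0.0073 and Lum 0.20. Leaving out each line in turn, the differences ran from -1.31 to 1.46 for Dcn, -2.18 to 0.16 for Lox, -2.62 to 2.18 for Lum, -0.21 to 0.54 for Postn, -0.058 to 0.086 for Acta2, -1.61 to 0.59 for Tagln, -1.23 to 0.82 for Thbs1 and -0.16 to 0.90 for Sparc. The ends of each range were without RF8 and without #620-2. By the sex label, 1 member probe was called with normexp (Dcn), and leaving out each line gave 0 to 1 (Lox without RF8, when no measured Lox value was left outside the 620 pair) and medians of -0.53 to -0.18, against -0.39. Of all probes, 0 to 88 were called when a line was left out, 287 with normexp, 210 after quantile normalization, 149 with a slide block, 27 without the filter on dim probes and 0 with genotype as a covariate, against 99. With normexp, the Lox difference by the sex label became 0.93 and that of Lum 0.48. The near-zero difference of Fbn1 turned to -0.013 with normexp, -0.41 with the slide as a block and -0.014 with genotype as a covariate. Without single lines it ran from -0.17 to 0.37, Sparc from -0.90 to 0.12 and the 10-spot Acta2 probe from -0.69 to 0.26, the last without RF8. The cause was not tested. Where leaving out a line left 1 line in a group, it was assumed to vary like the others. No paired analysis was possible, because #620-2 and #620-6 are the only wild-type and knock-in lines that share a number. The higher background of slide 2 limits Lum and Lox.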

Other observations

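Markers of other cell types that a culture of ESCs could hold also varied between the lines. Of 14 markers of primitive and parietal endoderm, all were well above background in both 620 lines, 13 in RF8, and 11 and 10 in the 757 lines. The 757 lines were on the slide where fewer of all probes were well above background. Sox17, an endoderm transcription factor, gave -4.99 in RF8, -2.64 and -2.99 in the 620 lines, and was not well above background in the 757 lines, at -4.94 and -4.92. Its difference by the sex label was 2.13 (SE 0.16, limma adjusted p = 0.0364, and 0.0734 with the slide as a block). Gata6 and Dab2, which mark the same lineage, were not called. Of 6 endothelial markers, 4 were measured in every line and none was called. Cd34 was the one with an unadjusted p under 0.05 by the sex label, at 1.68 and 1.79 in the 620 lines against 0.12 to 0.58 elsewhere. Tbx3, an ESC regulator, gave 1.18 in RF8, 4.45 and 4.43 in the 620 lines, and 2.27 and 2.94 in the 757 lines.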
